A study of Arabidopsis thaliana with 18 samples.

Results

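The genes described here are the loci of the Arabidopsis chloroplast genome other than psbA and rbcL, that is, every locus in both count tables whose identifier starts with ATCG except ATCG00020 and ATCG00490. They number 131 of the 34212 loci in the tables. RNA was sequenced from leaves of upf1-3 pad4-1 plants and of pad4-1 plants, the control, all in the Col-0 ecotype. UPF1 is an RNA helicase of nonsense-mediated mRNA decay, and PAD4 is a regulator of plant immunity whose pad4-1 mutation the control plants carry too. Plants of both genotypes were 3 weeks old at harvest, after 10 days on sucrose medium and then soil, at 22°C with 16 h light and 8 h dark. Total, monosomal and polysomal RNA of each genotype gave 3 biological replicates each, 18 single-end, strand-specific libraries made after depletion of ribosomal RNA. Each genotype is a single combination of alleles, and how many plants each replicate pooled is not given in the sources used here.

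The chloroplast genome is a remnant of a cyanobacterial genome and codes for core subunits of the photosynthetic complexes, for part of the plastid ribosome and for a bacterial-type RNA polymerase, while the other subunits of these complexes are coded in the nucleus and imported. Its genes are mostly transcribed in long clusters that are cut, trimmed, spliced and edited by nuclear-encoded proteins, and they are translated by plastid ribosomes of bacterial type. UPF1 acts on nuclear-encoded mRNAs in the cytosol.

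The tables list the loci by identifier only. The names used here are those of the standard Arabidopsis chloroplast nomenclature, which the tables do not pair with the identifiers. Notes in the supplied RefSeq annotation describe 6 of the 133 chloroplast identifiers, among them ATCG00660 as ribosomal protein L20 and ATCG00670 as plastid ClpP, and each note describes the gene named here, ATCG00430 (ndhK) under an older description. Of 71 single-copy names, all 71 stand in the same order by identifier as along the reference chromosome.

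Of the 131 loci, 77 had a count in every library, 1, psbN, in some libraries only, and 53 in none. The 77 passed the filter on low counts in every fit, and all results below are about them. The loci with no count were all 36 tRNA loci, the 4 loci of the 4.5S and 5S ribosomal RNAs, 11 protein genes with coding lengths of 90 to 123 nt, the locus of the first part of the split gene rps12 and ATCG00850. A count of 0 allows up to 3 counts, a level of 0.0368 to 0.184 CPM (counts per 1000000 counts) in these libraries, a limit that holds only if transcripts this short could be counted, which the sources used here do not state. Both genes of 132 to 135 nt, psbN and psaJ, stayed under 1000 counts in every library, and all 66 loci of 159 nt or more with a known length reached 1000 counts in at least 1 library. For the genes with a copy in each arm of the inverted repeat (such as ycf2, ndhB, rpl2 and the ribosomal RNAs), the counts of both copies were equal within 0.01 in each library for 9 of 9 names, so each pair stands for 1 measurement, and counts of loci below include both copies.

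Library totals ran between 53297808 and 81528746 counts in upf1-3 pad4-1 total RNA, between 50918963 and 67094302 in pad4-1 total RNA, and between 16325571 and 54702562 in the fractions. UPF1 was lower in total RNA of upf1-3 pad4-1 plants, at 39.3, 24.8 and 36.0 CPM, against 61.7, 76.1 and 69.9 CPM in pad4-1 plants. In monosomal RNA it had 37.5 to 43.3 CPM in upf1-3 pad4-1 and 42.8 to 48.1 CPM in pad4-1 plants, with overlap. In polysomal RNA UPF1 had 26.4, 32.7 and 65.6 CPM in upf1-3 pad4-1 plants, against 49.7, 49.6 and 46.4 CPM in pad4-1 plants, so the library labelled upf1-3 pad4-1 polysomal replicate 3 lies above all pad4-1 polysomal libraries, against its label. The level of PAD4 in total RNA was 3.57, 40.5 and 4.42 CPM in upf1-3 pad4-1 plants, against 1.78, 1.33 and 1.31 CPM in pad4-1 plants. In polysomal RNA PAD4 had 5.03, 6.76 and 4.03 CPM in upf1-3 pad4-1 and 0.948, 0.0718 and 1.23 CPM in pad4-1 plants. By PAD4, upf1-3 pad4-1 polysomal replicate 3 thus lies with the libraries of its label. Chloroplast loci, psbA and rbcL included, took 20.7 to 56.2% of the counts in the upf1-3 pad4-1 libraries and 31.7 to 74.1% in the pad4-1 libraries. Replicate 1 of pad4-1 was the highest by far in both fractions, with 59.9% in its monosomal library and 74.1% in its polysomal library. The summed level of 4 leaf mesophyll markers (RBCS1A, LHCB1.3, LHCB2.1 and RCA) was 7276 to 12412 CPM in upf1-3 pad4-1 total RNA, against 24034 to 26179 CPM in pad4-1 total RNA, and all 4 had counts in every library. The 6 flower markers summed to 0.397 to 2.81 CPM in upf1-3 pad4-1 total RNA and 2.78 to 17.9 CPM in pad4-1 total RNA, but to 151 and 117 CPM in pad4-1 monosomal replicates 2 and 3. The 4 root markers summed to 17.8 CPM at most, with RHD6 at 0 in all pad4-1 total RNA libraries.

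Per kilobase of coding length, photosystem genes were the most abundant of the 73 chloroplast loci with a length in total RNA. After psbA and rbcL, at ranks 1 and 2, came psbD, the D2 protein of the photosystem II reaction centre, at 16742 ± 3759 CPM per kilobase in upf1-3 pad4-1 plants and 13561 ± 5100 in pad4-1 plants (SD, n = 3). The psaB gene of the photosystem I reaction centre followed with 8763 ± 2440 CPM per kilobase in upf1-3 pad4-1 plants and 12755 ± 4475 in pad4-1 plants. Ranks 5 to 8 were psbE, psbC, psbB and psaA in upf1-3 pad4-1 plants, at 7667 to 6278 CPM per kilobase, and psaA, psbB, psbC and atpA in pad4-1 plants, at 10537 to 5804. The standard deviations of these neighbours overlap, so their order is not resolved. The RNA polymerase gene rpoC2 lay far lower, at 133 ± 47.1 CPM per kilobase in upf1-3 pad4-1 plants and 196 ± 57.3 in pad4-1 plants, and the short psaJ was lowest, at 3.65 ± 1.92 and 1.09 ± 0.862 CPM per kilobase in the same order of genotypes. All such lengths are those of the reference gene of the same name.

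The genes other than psbA and rbcL made up a smaller part of the chloroplast counts in total RNA of upf1-3 pad4-1 plants and a larger part in polysomal RNA. In total RNA their share was 21.5, 20.5 and 21.8% in upf1-3 pad4-1 plants, against 40.7, 38.6 and 38.1% in pad4-1 plants. The groups lay far apart, with means of 21.3 ± 0.648% and 39.1 ± 1.40% (SD, n = 3 each), a difference of -17.9 percentage points with an exact two-sided permutation p of 0.1, the smallest that 3 against 3 libraries can give. In polysomal RNA the share was 31.0, 44.5 and 42.7% in upf1-3 pad4-1 plants, against 18.6, 26.7 and 28.8% in pad4-1 plants, again without overlap and with a difference of 14.7 points at the same smallest p of 0.1 in the exact permutation test. Without upf1-3 pad4-1 replicate 3 the polysomal difference was 13.1 points. Monosomal RNA gave 17.9, 31.2 and 36.8% in upf1-3 pad4-1 plants, against 14.3, 10.8 and 20.1% in pad4-1 plants, groups that overlap (exact permutation p = 0.2).

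What is left of the chloroplast counts belongs to psbA and rbcL. The psbA gene had the inverse pattern in total RNA, without overlap, while its polysomal shares overlapped between genotypes. The psbA share of the chloroplast counts was 63.7 to 69.7% in upf1-3 pad4-1 total RNA, against 28.5 to 34.3% in pad4-1 total RNA, and 26.2 to 49.0% in upf1-3 pad4-1 polysomal RNA, against 41.6 to 61.4% in pad4-1 polysomal RNA. The rbcL share was 9.81 to 14.5% in upf1-3 pad4-1 total RNA, against 27.6 to 30.8% in pad4-1 total RNA.

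Of all counts, the 131 loci took 11.7, 8.99 and 12.2% in upf1-3 pad4-1 total RNA, against 13.9, 16.6 and 17.5% in pad4-1 total RNA. These groups did not overlap either (difference -5.0 points, exact permutation p = 0.1). In the fractions the shares of all counts overlapped between genotypes, at 6.47 to 8.74% in upf1-3 pad4-1 and 3.60 to 8.56% in pad4-1 monosomal RNA (exact permutation p = 0.4), and at 10.4 to 22.7% in upf1-3 pad4-1 and 11.3 to 13.8% in pad4-1 polysomal RNA (exact permutation p = 0.4). The 95% Wilson interval of each share reached at most 0.0351 points to each side, which covers counting error only. In bulk tissue, fewer cells of a type and less RNA per cell cannot be told apart.

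**Figure D1:**
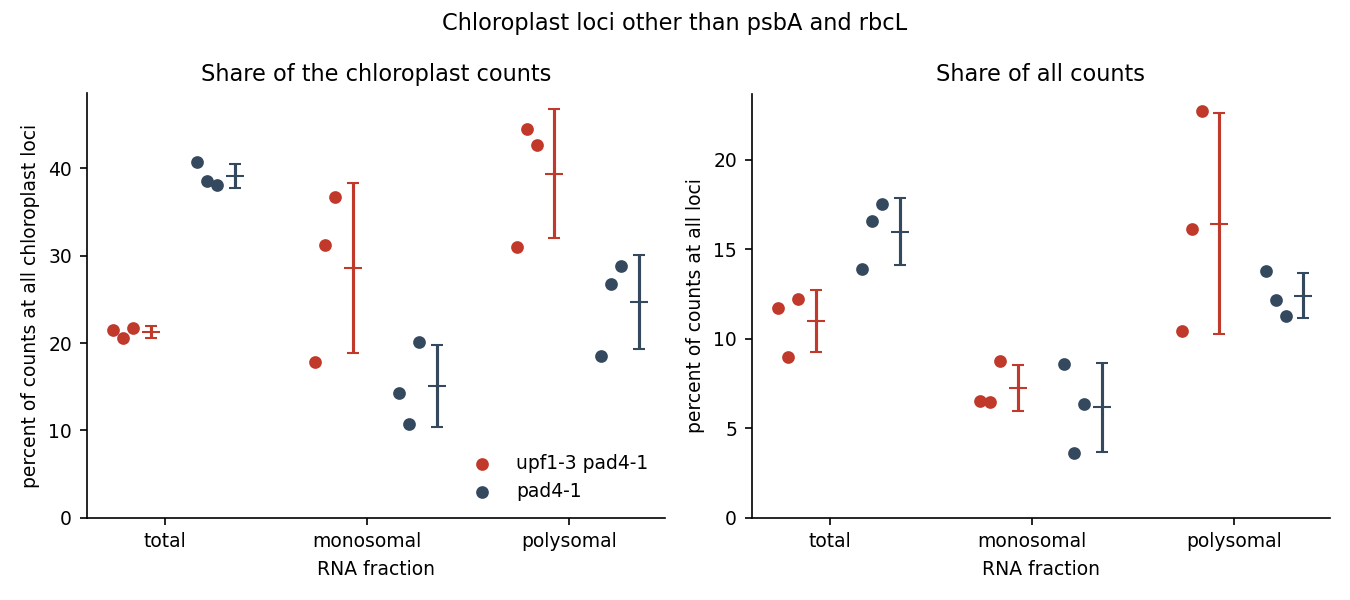
Share of counts at the chloroplast loci other than psbA and rbcL, in percent of the counts at all chloroplast loci (left) and of all counts (right), by RNA fraction and genotype. Points are libraries, with the mean and SD of 3 beside them. In total RNA the 3 upf1-3 pad4-1 libraries sit at 20.5 to 21.8% of the chloroplast counts, below the pad4-1 libraries at 38.1 to 40.7%, while in polysomal RNA they sit above them.

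In total RNA, set on all counts, 5 genes fell in upf1-3 pad4-1 plants and none rose. Described here are matK, rps14 and rpl20. The highest in level of them was matK (ATCG00040), which codes for the intron maturase of the chloroplast. It had 1623, 1088 and 1835 CPM in upf1-3 pad4-1 plants, against 3902, 5352 and 3963 CPM in pad4-1 plants, a log2 fold change of -1.54 ± 0.31 (SE, adjusted p = 0.011, edgeR's quasi-likelihood test). No upf1-3 pad4-1 library reached the lowest pad4-1 library.

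Both of the others described code for ribosomal proteins. The small-subunit gene rps14 (ATCG00330) had 255, 206 and 184 CPM in upf1-3 pad4-1 plants, against 859, 560 and 403 CPM in pad4-1 plants (log2 fold change -1.50 ± 0.33, adjusted p = 0.0143). The genotypes did not overlap, although the pad4-1 libraries ranged over more than the gap between the genotypes. The large-subunit gene rpl20 (ATCG00660) averaged 97.4 ± 16.7 CPM in upf1-3 pad4-1 plants and 183 ± 35.9 CPM in pad4-1 plants (-0.91 ± 0.25, adjusted p = 0.0308).

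The 5 genes called are 6.49% of the 77 loci, against 12.5% of all 20302 loci tested that were called lower, so the share called is below the background. No member was called higher, against 15.3% of all loci. The median log2 fold change of the 77 loci was -0.35, with 56 of 77 below 0, against a median of 0.03 over all tested loci. The call depends on single pad4-1 libraries: no gene was called without pad4-1 replicate 2, 2 loci, matK among them, without pad4-1 replicate 1, and 8 loci without upf1-3 pad4-1 replicate 1. Without upf1-3 pad4-1 replicate 2, the total RNA library highest in PAD4, matK, rps14 and rpl20 were still called lower (adjusted p = 0.0149, 0.0236 and 0.0254, edgeR). The mesophyll markers given above moved with this contrast, and their part in it was not tested.

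**Figure D2:**
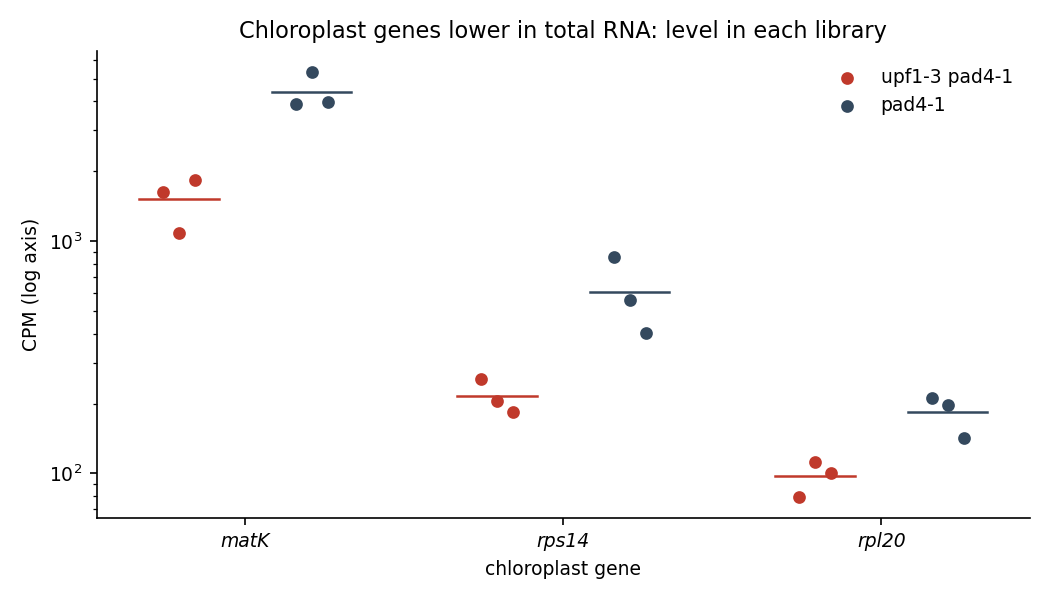
CPM in each total RNA library (log axis) of 3 chloroplast genes called lower in upf1-3 pad4-1 plants, matK, rps14 and rpl20. Points are libraries and lines are means of 3. For each gene all upf1-3 pad4-1 libraries lie below all pad4-1 libraries, as for matK with 1088 to 1835 CPM against 3902 to 5352 CPM.

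By role, values differed in direction between the gene groups, with few calls overall. All 6 genes of the ATP synthase, the complex that makes ATP from the proton gradient, lay below 0, with a median log2 fold change of -0.76 and none called. Its catalytic-head subunit genes atpA and atpB had 4329 ± 1370 and 3201 ± 769 CPM in upf1-3 pad4-1 plants, and 8845 ± 1516 and 5726 ± 899 CPM in pad4-1 plants (SD, n = 3). All 10 loci of large-subunit ribosomal proteins lay below 0 (median -0.80), as did 13 of 14 of the small subunit (median -0.44) and all 4 genes of the plastid-encoded RNA polymerase (median -0.62, none called).

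Photosystem genes were more mixed. In photosystem I, 3 of 4 genes lay below 0 (median -0.56), among them psaA with 12951, 10743 and 18740 CPM in upf1-3 pad4-1 plants, against 17979, 25340 and 27902 CPM in pad4-1 plants. The psaA libraries overlap between genotypes. In photosystem II, 4 of 7 genes lay below 0 (median -0.13), and psbD had 17780 ± 3992 CPM in upf1-3 pad4-1 plants and 14402 ± 5416 CPM in pad4-1 plants. The 3 cytochrome b6f genes, whose complex links the photosystems, had a median of 0.05, and petA had 1376 ± 314 and 1542 ± 76.4 CPM in the same order of genotypes. Of the 12 loci of the NDH complex, which returns electrons to the plastoquinone pool, 8 lay below 0 (median -0.39). The 4 loci of the 16S and 23S ribosomal RNAs lay above 0 (median 0.59, none called), in libraries that had been depleted of ribosomal RNA.

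Part of these directions depends on the scale. With a chloroplast denominator without psbA and rbcL, medians stayed below 0 for the ATP synthase (-0.37), the large-subunit proteins (-0.49) and the RNA polymerase (-0.25), but turned to 0.28 for photosystem II and, with a median already above 0, reached 0.46 for cytochrome b6f. Library totals without TMM factors moved the cytochrome b6f median to -0.11.

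**Figure D3:**
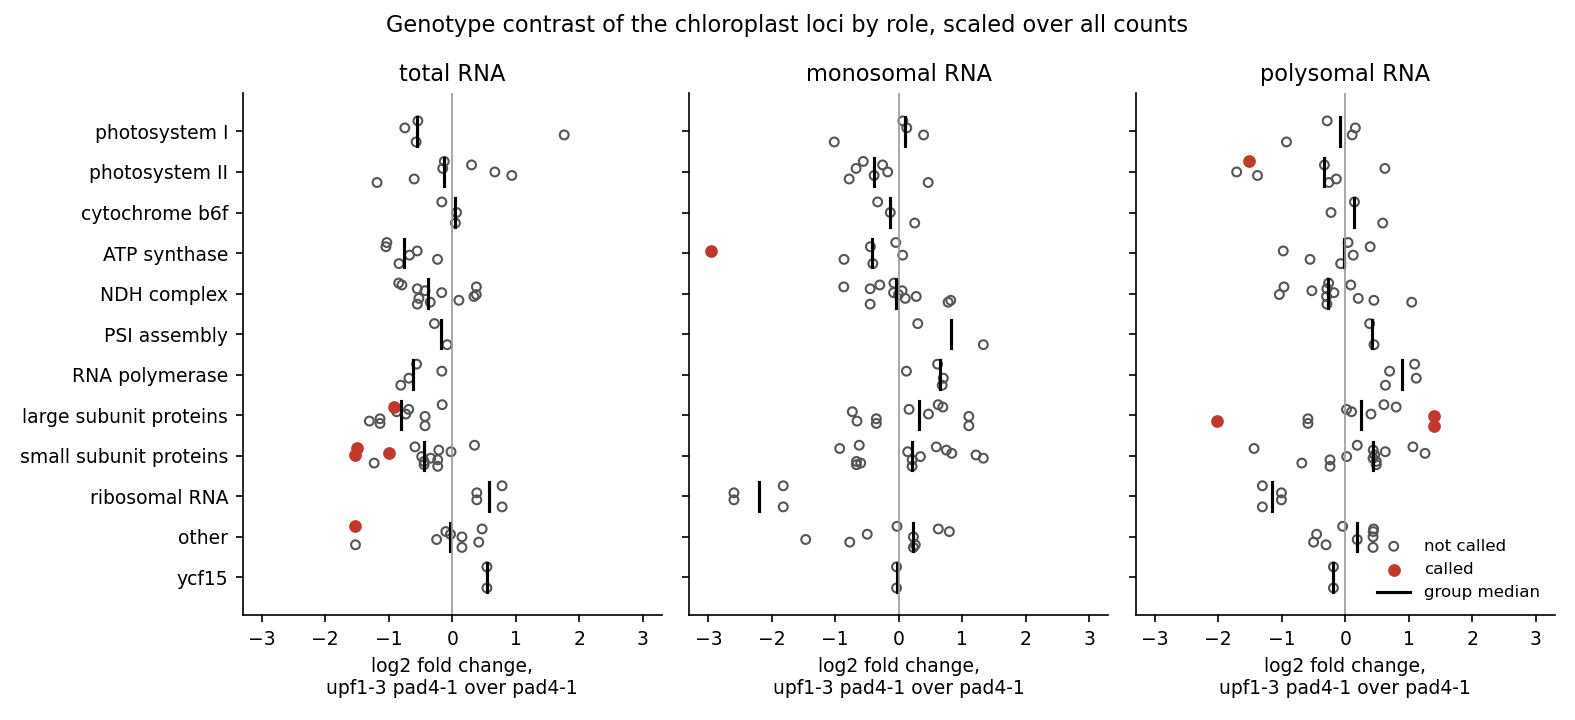
Log2 fold change of upf1-3 pad4-1 over pad4-1 plants, scaled over all counts, for each of the 77 tested chloroplast loci in rows by role, in total, monosomal and polysomal RNA. Filled points were called at an adjusted p under 0.05 and black lines are medians. In total RNA the 6 ATP synthase genes, the 10 loci of large-subunit proteins and the 4 RNA polymerase genes all lie left of 0, while the RNA polymerase genes lie right of 0 in both fractions.

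On the scale of the chloroplast counts, the total RNA contrast called 27 of the 77 loci lower and none higher, 35.1%, against 19.4% of all 20302 loci called lower and 7.21% called higher on this scale. Values on it are chloroplast CPM (counts per 1000000 counts at all chloroplast loci), and it moves the median of all tested loci to -0.48, where the median of the 77 was -0.92. The libraries of 34 loci did not overlap and were all lower in upf1-3 pad4-1 plants (44.2%, against 34.5% of all loci). Among the 10 with the smallest p were matK, atpA, psaA, atpB, rps14, psbB, psaB and ycf1 (ATCG01130), so that photosystem core and ATP synthase genes join those above. In psaA, a reaction centre protein of photosystem I, the values were 23948, 23290 and 29440 chloroplast CPM in upf1-3 pad4-1 plants, against 61912, 63020 and 57158 in pad4-1 plants (log2 fold change -1.25 ± 0.24, adjusted p = 0.0055). Its partner psaB had 34923 ± 4604 chloroplast CPM in upf1-3 pad4-1 plants and 70143 ± 7998 in pad4-1 plants (-1.01 ± 0.24, adjusted p = 0.012). The ATP synthase gene atpA had 8291, 6254 and 8827 chloroplast CPM in upf1-3 pad4-1 plants, against 25588, 21534 and 21400 in pad4-1 plants (-1.55 ± 0.27, adjusted p = 0.00453). For all 3 genes the genotypes stood clearly apart. The psbB gene of the photosystem II core antenna had 18858 ± 1448 chloroplast CPM in upf1-3 pad4-1 plants and 39370 ± 4704 in pad4-1 plants (-1.06 ± 0.25, adjusted p = 0.0111).

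Much of this rests on the denominator. With psbA and rbcL left out of it, 3 loci were called in place of 27, among them matK, which fell, and psbE, a cytochrome b559 subunit of photosystem II, which rose. Per 1000000 counts of the genes other than psbA and rbcL, matK had 13968, 11492 and 13241 in upf1-3 pad4-1 plants, against 33001, 34496 and 21314 in pad4-1 plants. The psbE gene had 8727, 27973 and 15392 on that scale in upf1-3 pad4-1 plants, against 4443, 8056 and 6720 in pad4-1 plants. With TMM factors computed over the chloroplast loci, matK alone was called. Only matK was thus called lower in total RNA on each of these scales. Without pad4-1 replicate 1 and without pad4-1 replicate 2 the scale within all chloroplast counts called 9 and 11 loci. For these denominators and left-out libraries the share of all loci called is not given here. Whether the drop from 27 is particular to the chloroplast loci can therefore not be read from these counts.

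Many nuclear genes that run plastid gene expression fell in the same libraries, where 12.5% of all loci were called lower. Of 19 tested genes for plastid transcription (sigma factors, the phage-type polymerase and proteins of transcriptionally active chromosomes), 11 fell and 1 rose in upf1-3 pad4-1 total RNA, with a median log2 fold change of -1.27. Examples are PTAC3 (-1.75 ± 0.25, adjusted p = 0.00339) and PTAC2 (-1.28 ± 0.20, adjusted p = 0.0044). Of 14 genes for plastid RNA processing, 8 fell and 1 rose (median -0.96), among them the chloroplast ribonucleoproteins CP33 (-2.16 ± 0.34, adjusted p = 0.00482) and CP31B (-1.44 ± 0.22, adjusted p = 0.00439). All 7 tested genes for plastid translation fell (median -1.41), such as PRPL11, a protein of the large plastid ribosomal subunit (-1.55 ± 0.22, adjusted p = 0.00352). In monosomal RNA 2, 3 and 0 genes of these lists rose and 5, 2 and 1 fell, in the order given, against 8.07% of all loci called higher and 4.6% called lower there. In polysomal RNA 4, 3 and 0 rose and 8, 2 and 0 fell, against 8.34% and 5.04% of all loci.

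In monosomal RNA, set on all counts, 1 chloroplast gene passed the test. The atpH gene (ATCG00140), which codes for the subunit that forms the rotating ring of the ATP synthase, had 73.3, 25.7 and 28.9 CPM in upf1-3 pad4-1 plants, against 368, 71.2 and 552 CPM in pad4-1 plants (log2 fold change -2.95 ± 0.70, adjusted p = 0.0127). The highest upf1-3 pad4-1 library lies just above the lowest pad4-1 library. This is 1.3% of the 77 loci, against 4.6% of all 20895 loci called lower, while none of the 77 was called higher, against 8.07%. The call was lost without pad4-1 replicate 3 or upf1-3 pad4-1 replicate 2, and the direction of the calls turned with the scaling and with 1 pair of libraries. With library totals in place of TMM factors 14 of the 77 were called higher and 1 lower, against 15.0% and 0.713% of all loci. Without both pad4-1 replicate 1 libraries of the fractions 7 were called higher and 1 lower, against 7.38% and 4.11% of all loci. The median over the 77 was -0.03, with 37 above and 40 below 0, against 0.02 over all loci. The 4 ribosomal RNA loci had a median of -2.21, with 23S rRNA at 2222, 1181 and 367 CPM in upf1-3 pad4-1 plants, against 15591, 1557 and 5650 CPM in pad4-1 plants, ranges that overlap and none called.

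On the chloroplast scale, 10 loci rose in upf1-3 pad4-1 monosomal RNA and none fell, 13.0% of 77, against 14.4% of all loci called higher and 0.488% called lower, while the median of all loci on this scale was 1.17 and that of the 77 was 1.33. The strongest was the small-subunit gene rps19, with 153, 398 and 498 chloroplast CPM in upf1-3 pad4-1 plants, against 47.2, 45.9 and 60.1 in pad4-1 plants (2.78 ± 0.76, adjusted p = 0.00519). The photosystem I assembly gene ycf4 had 478, 1542 and 1753 chloroplast CPM in upf1-3 pad4-1 plants, against 125, 162 and 322 in pad4-1 plants (2.63 ± 0.78, adjusted p = 0.0113). For both the groups do not overlap, and upf1-3 pad4-1 replicate 1 is the lowest of its group. Also called were rpl2 (both copies), ndhA, rps4, cemA and ndhH, with log2 fold changes of 2.05 to 2.45. With psbA and rbcL left out of the denominator none of the 77 was called on this scale, rps19 alone was called without pad4-1 replicate 1 or 2 or upf1-3 pad4-1 replicate 2 or 3, 4 loci without pad4-1 replicate 3, and 16 without upf1-3 pad4-1 replicate 1. Summed flower markers were 1.85 to 5.36 CPM in upf1-3 pad4-1 and 5.34 to 151 CPM in pad4-1 monosomal RNA, and summed root markers 4.48 to 17.8 CPM and 1.82 to 3.22 CPM. Their part in this contrast was not tested.

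In polysomal RNA, set on all counts, rpl2 rose and psbK and rpl32 fell in upf1-3 pad4-1 plants. The large-subunit gene rpl2 (ATCG00830 and its copy ATCG01310) had 692, 1085 and 1944 CPM per copy in upf1-3 pad4-1 plants, against 611, 419 and 383 CPM in pad4-1 plants (log2 fold change 1.40 ± 0.45, adjusted p = 0.0499). All 3 upf1-3 pad4-1 libraries were higher than all pad4-1 libraries, but the adjusted p lies at the threshold, and with the copies summed rpl2 was not called. The photosystem II gene psbK (ATCG00070) had 44.2, 58.3 and 144 CPM in upf1-3 pad4-1 plants, against 403, 168 and 130 CPM in pad4-1 plants (-1.51 ± 0.45, adjusted p = 0.0359). The large-subunit gene rpl32 (ATCG01020) had 9.95, 9.03 and 13.1 CPM in upf1-3 pad4-1 plants, against 98.9, 14.4 and 17.3 CPM in pad4-1 plants (-2.02 ± 0.64, adjusted p = 0.046). In both genes pad4-1 replicate 1, the library with the highest chloroplast share, is the highest, and without the pad4-1 replicate 1 libraries neither was called, while 3 loci, both rpl2 copies among them, were called higher. No locus was called without pad4-1 polysomal replicate 1 alone or upf1-3 pad4-1 replicate 2, and rpl2 was not called without pad4-1 replicate 2 or 3 or upf1-3 pad4-1 replicate 3 either, the library whose UPF1 level goes against its label. The 2 loci called higher and 2 called lower are 2.6% of 77 each way, against 8.34% of all loci called higher and 5.04% called lower. The median of the 77 was 0.02, against 0.03 over all loci. The mesophyll markers summed to 12242 to 15655 CPM in upf1-3 pad4-1 and 4872 to 17996 CPM in pad4-1 polysomal RNA, lowest in pad4-1 replicate 1. The flower markers summed to 0.599 to 10.6 CPM in upf1-3 pad4-1 and to 1.58, 30.2 and 47.8 CPM in pad4-1 polysomal RNA. The part of both marker lists in these calls was not tested.

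None of the 77 loci was called by edgeR in polysomal RNA within the chloroplast counts, where 6.75% of all loci were called higher and 0.302% lower. An unadjusted p under 0.05 was reached by 8 of the 77, against 18.3% of all loci. On this scale 69 of 77 lay above 0 and the libraries of 47 did not overlap and were all higher in upf1-3 pad4-1 plants (61.0%, against 24.5% of all loci), with a median of 0.76, against 0.75 over all loci. The rpl2 gene had 2671, 3662 and 2855 chloroplast CPM in upf1-3 pad4-1 plants, against 394, 862 and 1006 in pad4-1 plants (2.02 ± 0.78, adjusted p = 0.0977). Again the groups stood apart without passing the test. The 4 RNA polymerase genes had a median of 1.54, and they lay above 0 in polysomal RNA under each scaling run, with medians of 0.78 to 1.54, as they did in monosomal RNA, with medians of 0.65 to 1.96. The NDH loci had a median of 0.48 on this scale and of -0.28 on all counts.

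Polysomes hold mRNAs with several ribosomes and monosomes those with a single one. Set on all counts, the chloroplast loci as a group were higher in polysomal than in monosomal RNA in both genotypes. Of the 77, 69 lay above 0 in upf1-3 pad4-1 plants (median log2 fold change 1.32) and 68 in pad4-1 plants (median 1.32), against medians of 0.03 and 0.00 over all 20895 loci. Within the chloroplast counts the medians of the 77 were lower, 0.18 in upf1-3 pad4-1 and 0.70 in pad4-1 plants, and with psbA and rbcL left out of the denominator they were -0.19 and -0.08, while the 4 RNA polymerase genes had medians of 1.05 and 1.00.

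The genes that passed the test have long coding sequences for the most part. In upf1-3 pad4-1 plants 9 loci of 7 genes rose in polysomes, 11.7% of 77, against 0.57% of all loci called higher, and none fell, against 0.536%. They are the polymerase genes rpoC2, rpoB and rpoC1, the large gene ycf2 (both copies), rps2, and the NDH genes ndhB (both copies) and ndhI. In pad4-1 plants 5 loci of 4 genes rose, 6.49%, against 0.153% of all loci called higher, and none fell, against 0.177%. These are rpoC2, rpoB, ycf2 (both copies) and ycf1 (ATCG01130), a gene for a large protein of the inner envelope.

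The rpoC2 gene (ATCG00170), which codes for a subunit of the plastid RNA polymerase, had the largest ratio. In upf1-3 pad4-1 plants it had 899, 1663 and 3731 CPM in polysomal RNA, against 167, 239 and 257 CPM in monosomal RNA (log2 fold change 3.25 ± 0.52, adjusted p = 0.0106). In pad4-1 plants it had 1389, 865 and 698 CPM in polysomal RNA, against 202, 94.3 and 138 CPM in monosomal RNA (2.76 ± 0.51, adjusted p = 0.0331). Polysomal libraries lie above all monosomal ones in each genotype. The polymerase gene rpoB (ATCG00190) had 473, 850 and 1862 CPM in polysomal and 143, 121 and 138 CPM in monosomal RNA of upf1-3 pad4-1 plants (2.99 ± 0.49, adjusted p = 0.0125). In pad4-1 plants rpoB had 666, 462 and 339 CPM in polysomal and 111, 44.6 and 91.9 CPM in monosomal RNA (2.57 ± 0.49, adjusted p = 0.0341).

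The ycf2 gene (ATCG00860 and its copy ATCG01280) had 1189, 1592 and 3574 CPM per copy in polysomal and 356, 275 and 320 CPM in monosomal RNA of upf1-3 pad4-1 plants (2.74 ± 0.49, adjusted p = 0.0149). In pad4-1 plants ycf2 had 2300, 1336 and 1056 CPM in polysomal and 372, 178 and 262 CPM in monosomal RNA (2.53 ± 0.48, adjusted p = 0.0341). For rpoC2, rpoB and ycf2 alike, replicate 3 was the highest polysomal library in upf1-3 pad4-1 plants, the one with UPF1 above the pad4-1 level, and replicate 1 in pad4-1 plants. These are also the polysomal libraries with the highest chloroplast share of all counts in each genotype, and that share's part in the ratios was not tested.

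The number of calls changed with single libraries. None was left in upf1-3 pad4-1 plants without monosomal replicate 2, rpoC2 alone without monosomal replicate 3, rpoC2 and rpoB without polysomal replicate 3, and rpoC2, rpoB, ycf2 and ndhI without polysomal replicate 2, while 18 loci were called without polysomal replicate 1. In pad4-1 plants no call was left without any single library other than monosomal replicate 1, which left 5. Replicate numbers paired the upf1-3 pad4-1 fractions, and with the replicate block 33 loci were called there. Of these 31 were higher in polysomes, 40.3% of 77, against 1.35% of all loci, and 2 were lower, psbE and rpl32, 2.6%, against 1.64% of all loci. The block also raised the number of calls in pad4-1 plants, whose fractions missed the rule for pairs given under processing. Scaled within the chloroplast counts, edgeR called none of the 77 in either genotype, where 0.369% of all loci were called in upf1-3 pad4-1 and 0.124% in pad4-1 plants. At an unadjusted p under 0.05 were 9 of the 77 in upf1-3 pad4-1 plants, against 13.2% of all loci, and 14 in pad4-1 plants, against 6.53%. With the block 4 loci were called on that scale in upf1-3 pad4-1 plants, mostly lower in polysomes: rpl32 (-2.28), psbE (-2.44) and psbK (-1.94) fell, and rpoC2 (2.07) rose, against 4.21% of all loci called lower and 0.235% called higher. The calls made there with TMM factors over the chloroplast loci (psbE, rpl32 and psbK) and without psbA and rbcL (psbE and rpl32) were all lower in polysomes.

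Across genes, the ratio of polysomal to monosomal RNA went with coding length. Over 62 chloroplast protein genes with a known length, each taken once, Spearman's rho between length and the log2 ratio of polysomal to monosomal RNA was 0.73 in upf1-3 pad4-1 plants (Pearson's r with log length 0.75) and 0.56 in pad4-1 plants (r = 0.61). By single replicate number rho was 0.60, 0.72 and 0.68 in upf1-3 pad4-1 plants and 0.43, 0.74 and 0.57 in pad4-1 plants. Genes are not independent replicates, they share libraries and transcription units, and these values are a description. The median log2 ratio of the 27 genes of 135 to 483 nt was 0.71 in upf1-3 pad4-1 and 0.82 in pad4-1 plants. For the 23 genes of 507 to 1497 nt it was 1.52 and 1.41, and for the 12 genes of 1503 to 6885 nt 2.1 and 1.95, in the same order of genotypes. The genes with high ratios are thus mostly those that are long, such as ycf2 with 6885 nt, rpoC2 with 4131 nt and rpoB with 3219 nt, with rps2 (711 nt) and ndhI (519 nt) as shorter ones called in upf1-3 pad4-1 plants. At the other end psbE (252 nt) had a log2 ratio of -1.39 in upf1-3 pad4-1 and -0.40 in pad4-1 plants, neither called without the replicate block. With the block psbE was called lower there (-1.48, adjusted p = 0.0245 in edgeR). Set against total RNA in place of monosomal RNA, polysomal RNA showed no such rise with length over the same 62 genes. Spearman's rho was then -0.01 in upf1-3 pad4-1 and -0.38 in pad4-1 plants.

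**Figure D4:**
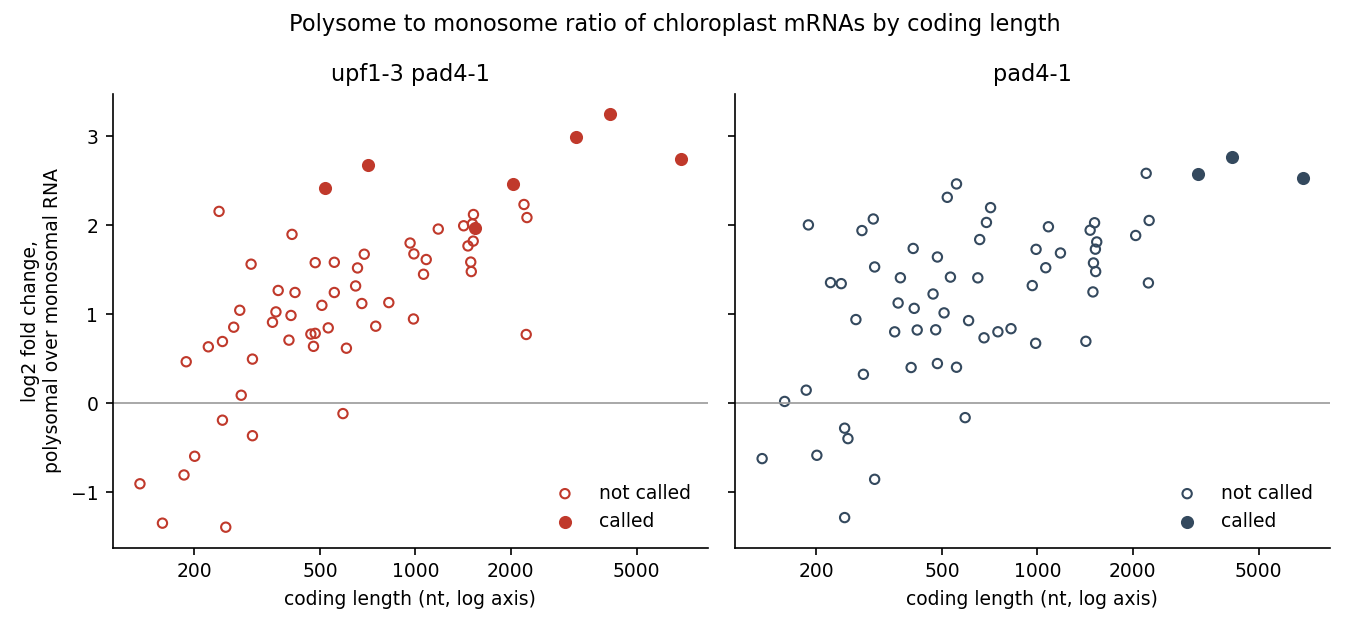
Log2 fold change of polysomal over monosomal RNA, scaled over all counts, against coding length (log axis) for 62 chloroplast protein genes in upf1-3 pad4-1 (left) and pad4-1 plants (right). Filled points were called at an adjusted p under 0.05. The ratio is higher for longer genes in both genotypes, with a Spearman's rho of 0.73 and 0.56 in the order of the panels; ycf1, rps12 and ycf15 have no length here and are not drawn.

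The ratio of polysomal to monosomal RNA did not differ detectably between genotypes for any chloroplast locus. The interaction term called none of the 77 loci, nor any of the 20895 tested, on all counts (0.0% called in edgeR, with 1 of the 77 and 2.36% of all loci at an unadjusted p under 0.05, and none of the 77 called by DESeq2). It called none of the 77 on the chloroplast scale either, against 0.00957% of all loci, with 1 of the 77 and 1.37% of all loci at an unadjusted p under 0.05. Among the largest differences atpH had a log2 ratio of polysomal to monosomal RNA of 0.69 in upf1-3 pad4-1 plants and -1.28 in pad4-1 plants, a difference of 1.98 ± 0.93 (adjusted p = 1.00). Within the chloroplast counts the atpH ratios were -0.10 in upf1-3 pad4-1 and -2.16 in pad4-1 plants, so the sign in upf1-3 pad4-1 plants depends on the scale.

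Polysomal RNA was also set against total RNA, over all 18 libraries. The total RNA libraries come from another deposited table than the fractions, so that any difference in how the tables were made goes into this contrast. In polysomes of upf1-3 pad4-1 plants 12 loci rose and 3 fell, 15.6% and 3.9% of 77, against 5.23% and 3.72% of all 21905 loci. In pad4-1 plants 8 rose and 2 fell, 10.4% and 2.6%, against 1.39% and 1.09% of all loci. The median of the 77 was 0.71 in upf1-3 pad4-1 plants and 0.23 in pad4-1 plants, against -0.02 and 0.03 over all loci. The direction in pad4-1 plants depends on the scale. Within the chloroplast counts the median of the 77 was -0.55 there, with 51 of 77 below 0, against -0.50 over all loci. In upf1-3 pad4-1 plants it was 1.32 on that scale, with 68 of 77 above 0, against 0.77 over all loci.

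The ring subunit gene atpH was lower in polysomal than in total RNA in both genotypes and on both scales. In upf1-3 pad4-1 plants it had 30.5, 95.8 and 72.0 CPM in polysomal RNA, against 700, 535 and 821 CPM in total RNA (log2 fold change -3.37 ± 0.67, adjusted p = 0.00427). In pad4-1 plants it had 252, 94.7 and 56.7 CPM in polysomal RNA, against 744, 959 and 1219 CPM in total RNA (-2.86 ± 0.65, adjusted p = 0.0249). In chloroplast CPM the log2 fold changes were -2.62 ± 0.66 in upf1-3 pad4-1 plants (adjusted p = 0.0235) and -3.80 ± 0.70 in pad4-1 plants (adjusted p = 0.00365). In pad4-1 plants on all counts, however, atpH was not called without polysomal replicate 2 or 3, or total replicate 2 or 3.

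Other genes were called lower in polysomes of a single genotype on all counts, with the difference between genotypes not tested. The rpl20 gene had 49.4, 26.8 and 22.7 CPM in polysomal RNA of pad4-1 plants, against 221, 204 and 147 CPM in total RNA (-2.53 ± 0.49, adjusted p = 0.011), and 27.4, 57.5 and 82.0 CPM in polysomal RNA of upf1-3 pad4-1 plants, against 87.8, 119 and 105 CPM in total RNA, not called. In upf1-3 pad4-1 plants psbE had 309, 164 and 438 CPM in polysomal RNA, against 1120, 2805 and 2246 CPM in total RNA (-2.76 ± 0.63, adjusted p = 0.00978). The ccsA gene, for a protein of cytochrome c assembly, fell there as well (-2.19 ± 0.54, adjusted p = 0.0147). In each of these 3 called contrasts every polysomal library lies below every total RNA library. Values of the other genotype can lie below 0 as well. Within the chloroplast counts ccsA was at -2.10 ± 0.60 in pad4-1 and -1.57 ± 0.59 in upf1-3 pad4-1 plants, neither called. On that scale psbE was at -1.33 ± 0.60 in pad4-1 plants, without overlap and not called, and at -2.16 ± 0.61 in upf1-3 pad4-1 plants, called.

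Among the genes that rose on all counts, ycf1 (ATCG01130) and rps14 did so in both genotypes. The ycf1 gene had 884, 1006 and 1698 CPM in polysomal RNA of upf1-3 pad4-1 plants, against 146, 34.0 and 142 CPM in total RNA (3.48 ± 0.58, adjusted p = 0.00155). In pad4-1 plants it had 2932, 917 and 729 CPM in polysomal RNA, against 329, 346 and 222 CPM in total RNA (2.35 ± 0.55, adjusted p = 0.0283). The rps14 gene had 1220, 1080 and 2421 CPM in polysomal RNA of upf1-3 pad4-1 plants, against 282, 218 and 194 CPM in total RNA (2.77 ± 0.69, adjusted p = 0.016). In pad4-1 plants rps14 had 9786, 2043 and 1428 CPM in polysomal RNA, against 901, 581 and 417 CPM in total RNA (2.80 ± 0.69, adjusted p = 0.0346). Neither gene's fractions overlap, and pad4-1 polysomal replicate 1 is the highest library for both. In pad4-1 plants the calls of both genes were lost when that library, or any single total RNA library of that genotype, was left out. Within the chloroplast counts neither gene was called in pad4-1 plants, so their rise there depends on the scale and on single libraries for its call.

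Among the other calls in upf1-3 pad4-1 plants were the ribosomal protein genes rpl33 (2.07 ± 0.41), rpl22 (2.05 ± 0.50), rps3 (2.29 ± 0.68) and rps19 (2.04 ± 0.60), beside psbH, rpoC2, rpoA, petA and matK at 1.42 to 2.56. For rpl33 the libraries held 75.0, 46.6 and 92.9 CPM in polysomal RNA, against 23.2, 6.29 and 21.8 CPM in total RNA, without overlap. Without upf1-3 pad4-1 total replicate 2, 6 loci were called, among them ycf1 and rpl33 higher and atpH, psbE and ccsA lower. Without polysomal replicate 2 or 3, 9 and 8 were called, with ycf1, rpl33 and atpH in both cases. The 8 calls without replicate 3, whose UPF1 level goes against its label, were 3 higher and 5 lower. On the chloroplast scale 18 loci rose and 2 fell there, against 2.98% of all loci called higher and 0.132% called lower, but without upf1-3 pad4-1 total replicate 3 only 4 were called, ycf1, rps14 and rpl33 among them, 7 without total replicate 2 or polysomal replicate 1, 10 without total replicate 1 and 12 without polysomal replicate 2. With psbA and rbcL left out of the denominator, 4 loci were called, among which ycf1 rose and atpH and psbE fell.

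On all counts the chloroplast ribosomal RNAs were called higher in polysomes of pad4-1 plants only. Within the chloroplast counts both were called in upf1-3 pad4-1 plants, and 16S rRNA in pad4-1 plants too. In pad4-1 plants 16S rRNA had 5123, 1008 and 931 CPM per copy in polysomal RNA, against 70.0, 40.2 and 209 CPM in total RNA (4.47 ± 1.00, adjusted p = 0.0218), and the 23S rRNA rose by 4.08 ± 0.94 (adjusted p = 0.0261). In upf1-3 pad4-1 plants 16S rRNA had 889, 199 and 1666 CPM in polysomal RNA, against 36.3, 394 and 132 CPM in total RNA, with overlap and not called (2.29 ± 0.91, adjusted p = 0.124), nor was 23S rRNA (2.60 ± 0.88, adjusted p = 0.0715). In chloroplast CPM both were called in upf1-3 pad4-1 plants, 23S rRNA at 3.08 ± 0.74 (adjusted p = 0.018, without overlap) and 16S rRNA at 2.67 ± 0.76 (adjusted p = 0.0417, with overlap), while in pad4-1 plants 16S rRNA was called (3.42 ± 0.78, adjusted p = 0.0444) and 23S rRNA was not (3.01 ± 0.74, adjusted p = 0.0806). All libraries had been depleted of ribosomal RNA, and these loci together took 0.0335 to 0.155% of all counts in total RNA and 0.141 to 2.43% in the fractions, so their level depends on what the depletion left. Of the 8 loci that rose in pad4-1 plants none was called without polysomal replicate 1, or without any single total RNA library. Chloroplast CPM of 16S rRNA rose in pad4-1 plants, both copies, and atpH and rpl20 fell, against 0.0959% of all loci called higher and 0.0913% called lower.

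**Figure D5:**
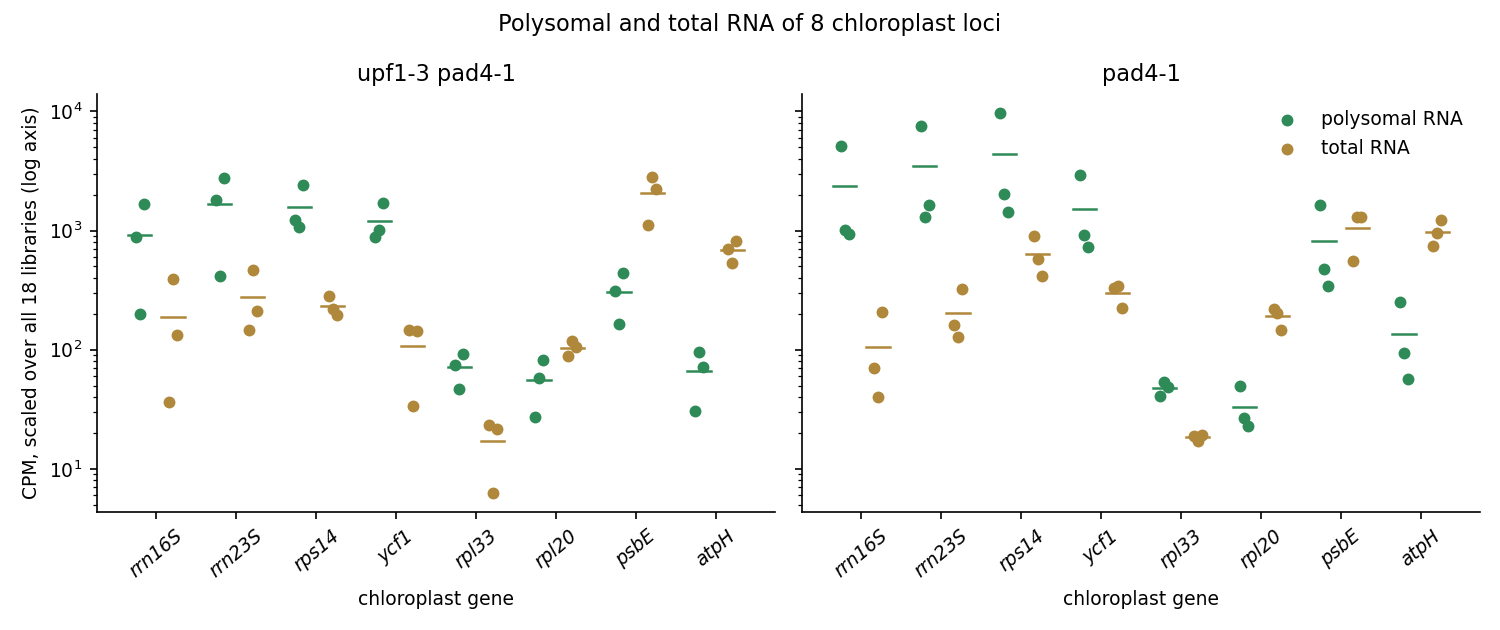
CPM in polysomal and total RNA (log axis, scaled over all 18 libraries) of 8 chloroplast loci named in the text, in upf1-3 pad4-1 (left) and pad4-1 plants (right). Points are libraries and lines are means of 3. The atpH gene lies lower in polysomal RNA in both genotypes, at 30.5 to 95.8 CPM against 535 to 821 CPM in upf1-3 pad4-1 plants, while ycf1 and rps14 lie higher.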

How the data were processed

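The deposited tables hold expected counts, that is, estimated counts per locus, with 34212 loci in each. The submitters' processing notes name kallisto 0.43.0, limma and TAIR10 without saying what each was used for. All libraries were made after ribosomal RNA depletion, per the labels' protocols. Counts were rounded to whole numbers and fitted with edgeR 4.0.16 in R 4.3.3 (quasi-likelihood, filterByExpr with a count minimum of 10, TMM, Benjamini-Hochberg over all tested loci, two-sided), and loci were called at an adjusted p under 0.05. Total RNA was fitted alone, both fractions together, and polysomal against total RNA over all 18 libraries. A second scale used the summed count of all ATCG loci as library size, without TMM. Both scales were fitted on the whole table. A standard error is the log2 fold change over the square root of F. Shares were compared by exact permutation.

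Alternatives were library totals, scaling over nuclear loci, no filter, other denominators, summed inverted repeat copies, DESeq2 1.42.0, a replicate block, and leaving out libraries. The fits were also run on simulated counts with changes placed only in loci outside the chloroplast genome. That run does not test how changes at the chloroplast loci are recovered. Replicate numbers were taken as pairs where the deviations of same-numbered libraries correlated above 0.1 in every pair, which held between the fractions of upf1-3 pad4-1 plants (0.23, 0.15 and 0.17) and in no other pair of groups. The fractions of pad4-1 plants missed it by a single value (0.34, 0.06 and 0.10). Differently numbered libraries were not compared, so the rule does not show that the numbers are pairs.

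Genes named in the text are the called ones, up to 10 each way by smallest p in each contrast and scale, and the most abundant of each role group. A few others, psbE in the length and denominator comparisons, rpl2 within the polysomal chloroplast counts and the ribosomal RNAs, were chosen after their values were seen. Loci, roles and lists were chosen with earlier results of these data known. Names of chloroplast loci follow standard nomenclature and are not in the tables. Of 89 protein loci, 86 have a name that is a chloroplast gene symbol in the RefSeq TAIR10.1 annotation, which gave coding lengths. As its build name differs from that of the tables, no coordinates or sequences are given. Genes that overlap on a strand (psbD with psbC, atpB with atpE, ndhC with ndhK) and inverted repeat copies share reads, so their split is uncertain. Of the listed nuclear genes, 5 could not be matched and were left out. Some called genes are not reported here by name.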

Additional observations from a re-analysis of the deposited data

How the results depend on the processing

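Counts of called loci moved with the processing, while no gene called changed sign under an alternative within its own contrast and scale. The counts in this section are among the 77 loci, and the share of all loci called can move with the processing too. In monosomal RNA on all counts, 8.07% of all loci were called higher with TMM factors and 15.0% with library totals. A change in a count given without that share is thus not by itself a result about the chloroplast loci. The same holds for such counts above. Between the scales signs can differ, as for psbD in total RNA (0.30 on all counts, -0.15 within the chloroplast counts, neither called). On all counts, library totals without TMM called 10 loci in total, 15 in monosomal (14 higher, 1 lower) and 7 in polysomal RNA, 2 (upf1-3 pad4-1) and 0 (pad4-1) for polysomal against monosomal RNA, and 26 for polysomal against total RNA in upf1-3 pad4-1 plants. Without the filter on low counts the numbers were 9 in monosomal and 13 in polysomal RNA, 32 (upf1-3 pad4-1) and 31 (pad4-1) for polysomal against monosomal, and 28 and 17 for polysomal against total RNA. DESeq2 called 12 in total and 6 in monosomal RNA, 28 and 23 for polysomal against monosomal, and 27 and 16 for polysomal against total RNA. Scaling over nuclear loci, or summing the inverted repeat copies, left 2 in polysomal RNA. The replicate block gave 2 in monosomal RNA and, for polysomal against monosomal RNA, 33 in upf1-3 pad4-1 and 35 in pad4-1 plants. Same-numbered pad4-1 libraries correlated by 0.34, 0.06 and 0.10, and the value of 0.06 alone left them outside the rule used. The block thus raised the calls in both genotypes. It changed no other count on all counts by over 1.5 times.

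Within the chloroplast counts, a denominator without psbA and rbcL called 3 in total and 0 in monosomal RNA, 2 and 1 for polysomal against monosomal (upf1-3 pad4-1, pad4-1), and 4 for polysomal against total RNA in upf1-3 pad4-1 plants. TMM over the chloroplast loci called 1 in total and 1 in monosomal RNA, 3 and 1 for polysomal against monosomal, and 7 and 2 for polysomal against total RNA. No filter called 6 in monosomal RNA, and the block 2 in polysomal RNA and 4 for polysomal against monosomal RNA in upf1-3 pad4-1 plants. The cause of these moves was not tested.

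Leaving out libraries gave, on all counts, 0 to 8 calls in total, 0 to 8 in monosomal and 0 to 3 in polysomal RNA, 0 to 19 and 0 to 5 for polysomal against monosomal, and 6 to 22 and 1 to 8 for polysomal against total RNA (upf1-3 pad4-1, pad4-1). Within the chloroplast counts the ranges were 9 to 30, 1 to 16 and 0 to 0, then 0 to 5 and 0 to 0, then 4 to 36 and 1 to 2. The share of all counts in monosomal RNA, 1.06 points higher in upf1-3 pad4-1 plants, ran between -0.232 points, without pad4-1 replicate 2, and 2.25 points. Of the tested loci psaJ had the lowest level, so counting error weighs most on it.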

Other observations

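The make-up of the counts of these genes can be given without psbA, rbcL or the nuclear genes, as shares of their own sum. The 4 RNA polymerase genes took 3.07, 2.97 and 3.06% of it in upf1-3 pad4-1 polysomal RNA, against 1.37, 1.78 and 1.66% in pad4-1 polysomal RNA. In monosomal RNA they took 1.61, 1.79 and 1.42% in upf1-3 pad4-1 plants, against 0.704, 0.992 and 0.792% in pad4-1 plants. In both fractions the genotypes did not overlap, while in total RNA they did, at 1.16 to 2.13% and 1.55 to 1.99%. This is not particular to the polymerase genes. In monosomal RNA the shares of both ribosomal protein groups, NDH and photosystem I assembly were also higher without overlap, and that of the ribosomal RNAs lower. In polysomal RNA photosystem I assembly and the large-subunit proteins were also higher without overlap. Large-subunit ribosomal protein loci likewise took 2.66 ± 0.532% in upf1-3 pad4-1 and 1.43 ± 0.0368% in pad4-1 polysomal RNA (SD, n = 3 each), without overlap, and 1.75 ± 0.607% and 2.09 ± 0.722% in total RNA, with overlap.

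ATP synthase genes took 11.4, 8.68 and 9.73% in upf1-3 pad4-1 total RNA, against 15.2, 14.3 and 13.0% in pad4-1 total RNA, without overlap, and 11.5 ± 0.594% and 11.3 ± 1.54% in polysomal RNA. Cytochrome b6f genes took more of the total RNA sum in upf1-3 pad4-1 plants, at 3.36 to 4.19%, than in pad4-1 plants, at 2.47 to 3.07%. The 16S and 23S ribosomal RNAs took 1.61 to 10.7% in upf1-3 pad4-1 monosomal RNA and 10.9 to 28.3% in pad4-1 monosomal RNA, so the shares of the other groups there depend on what the depletion left. These shares were looked at after the other results and were not tested.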
